A study of Mus musculus with 12 samples.

Results

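Transcripts of the BMP ligands *Bmp2*, *Bmp4*, *Bmp5*, *Bmp6*, *Bmp7* and *Gdf5*, the secreted BMP antagonists *Grem1*, *Nog* and *Chrdl1*, and the BMP target gene *Id1* were followed in bulk RNA sequencing of mouse tissue from beside the spine. These 10 genes were picked by symbol from the 18996 genes of the count table, and all 10 passed the filter on low counts that left 14765 genes to test. The study used wild-type BALB/c mice of both sexes, obtained at 5 to 7 weeks of age, in 3 groups of 4 mice each. The No operation group had no surgery and gave paraspinal soft tissue. In the SHAM group, paraspinal soft tissue was removed but the lamina of the vertebra was left in place. In the Laminectomy group the lamina was excised as well. Tissue of both surgical groups was taken 7 days after surgery and held scar together with soft tissue. Each sample is a mixed tissue, so a lower transcript level can come from fewer cells that express a gene or from less RNA per cell, and these cannot be told apart.

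BMPs are secreted ligands of the TGF-beta superfamily that bind pairs of type I and type II receptor kinases, which phosphorylate SMAD1, SMAD5 and SMAD9. The activated SMADs enter the nucleus with SMAD4 and switch on target genes, of which those of the ID family are the best known. Antagonists such as noggin, gremlin and the chordin-like proteins bind the ligands outside the cell and keep them from their receptors. The pathway is known for inducing bone and cartilage, and it also acts in muscle, vessels and healing wounds. Transcripts were measured here, not proteins or receptor activity.

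Counts on genes totalled 16802989 to 18077868 per mouse, and levels are given as CPM, counts scaled to the TMM-adjusted library size. The tissue label was checked against marker genes. The 7 markers of skeletal muscle summed to 86272 to 129232 CPM in No operation, 1782 to 8253 CPM in SHAM and 2765 to 12223 CPM in Laminectomy mice. The 8 fibroblast markers summed to 6051 to 21275 CPM, 44446 to 60215 CPM and 40872 to 46852 CPM in the same order, with No operation mouse 4 the lowest and the rest of that group at 12466 to 21275 CPM. The fibroblast markers did not move as 1 group, since 6 of the 8 were DEGs and higher in each surgical group, among them *Col1a1* and *Col3a1*, while *Dcn* was lower in both (log2 fold changes -0.94 in SHAM and -1.73 in Laminectomy mice). *Fap* in SHAM and *Pdgfra* in Laminectomy mice were not DEGs. SHAM mouse 1 stood apart from its group, since its 5 markers of satellite cells and regenerating muscle summed to 3.71 CPM, against 779 to 1202 CPM in the other SHAM mice. It also set the lowest SHAM sum of skeletal muscle markers, which ranged from 5483 to 8253 CPM without it. Laminectomy mouse 2 stood apart in nerve and cartilage markers. Its neuron markers summed to 217 CPM (10.3 to 55.1 CPM in the rest of its group), its central glia markers to 114 CPM (1.59 to 35.7), its Schwann cell markers to 488 CPM (78.8 to 143) and its cartilage markers to 1027 CPM (175 to 418). Laminectomy mouse 1 set the lowest Laminectomy sum of muscle markers, with 9082 to 12223 CPM in mice 2 to 4. Over all genes, pairs that held mouse 1 differed by a chi-square per gene of 58.2 to 62.3 in Laminectomy, 64.8 to 78.5 in SHAM and 75.1 to 98.7 in No operation mice, where the remaining pairs differed by 18.4 to 28.4, 30.5 to 42.2 and 32.6 to 65.8. The plot of summed markers gives these sums in each mouse.

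**Figure D1:**
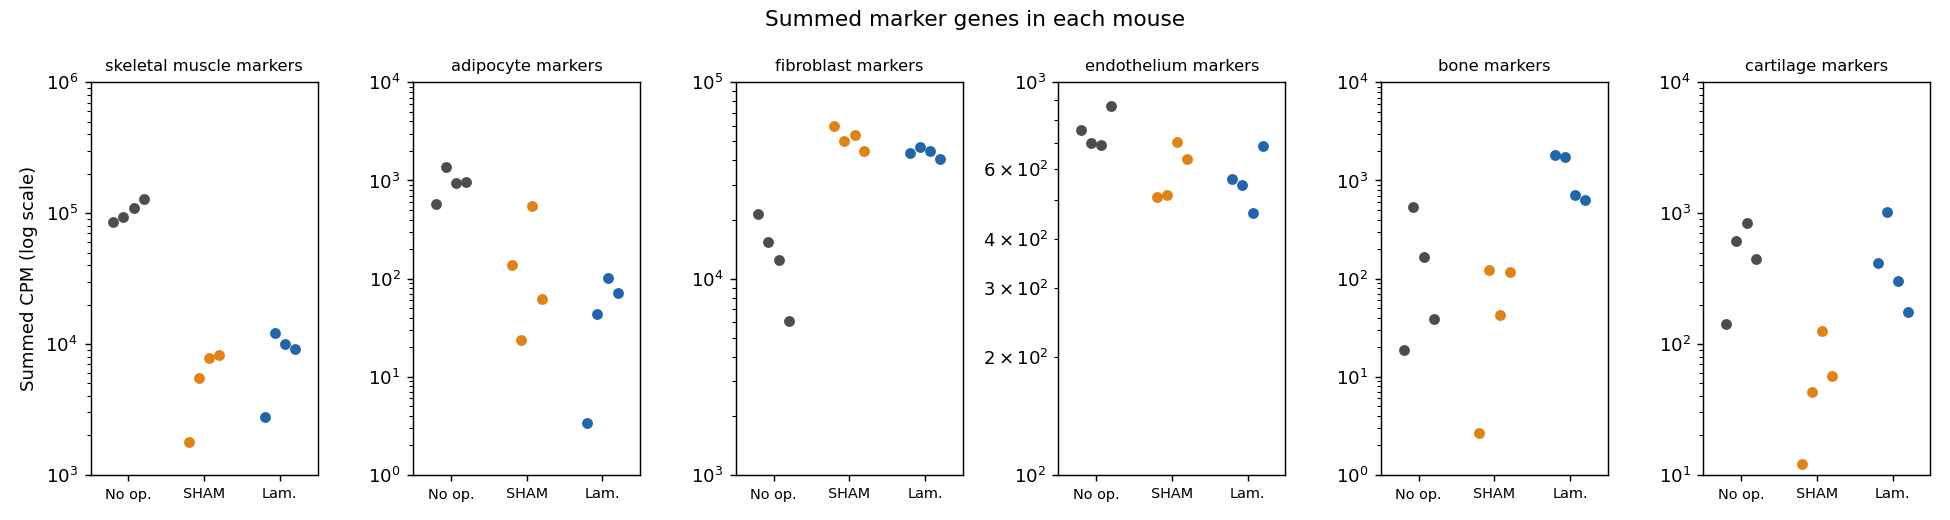
Summed CPM of marker genes (log scale) for 6 cell or tissue types in each of the 12 mice, with 1 panel per marker list and 1 point per mouse. The summed muscle markers are lower and the summed fibroblast markers higher in every mouse after surgery. Bone markers are at 635 to 1797 CPM in Laminectomy mice, and between 42.7 and 122 CPM after SHAM surgery except in mouse 1 (2.70 CPM).

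Against No operation mice, 8 of the 10 genes fell in SHAM mice, and 6 of the 10 fell in Laminectomy mice. With all mice, *Bmp4* and *Bmp6* had the largest falls in both groups. With TMM scaling and all mice, none of the 10 rose in either group. In the edgeR quasi-likelihood fit a gene was called a DEG, a differentially expressed gene, at an adjusted p below 0.05 with an absolute log2 fold change above 0.5. By this rule 50.8% of all genes tested were DEGs in SHAM mice, 25.1% as lower, and 48.6% were DEGs in Laminectomy mice, 24.4% as lower. The median log2 fold change of the 10 genes was -1.40 in SHAM and -1.12 in Laminectomy mice, beside 0.00 and 0.01 over all genes tested. With libraries scaled by total counts alone, the median of all genes moved by 0.26 in SHAM and 0.32 in Laminectomy mice. The share of DEGs that were higher then went from 50.6% to 66.0% in SHAM and from 49.8% to 69.9% in Laminectomy mice. Under that scaling 5 of the 10 genes were DEGs in each group, named below where a call was lost or gained. Without SHAM mouse 1 the same 8 genes were DEGs in SHAM mice, at log2 fold changes between -2.98 for *Bmp4* and -1.04 for *Nog*, with *Bmp7* (-2.88) then falling more than *Bmp6* (-2.55), and 7 were DEGs in Laminectomy mice, where *Id1* was added (log2 fold change -0.68, adjusted p = 0.0468). Without Laminectomy mouse 2 the same 6 genes were DEGs in Laminectomy mice, and 7 of the 8 were in SHAM mice, where *Chrdl1* was lost (adjusted p = 0.0611). Without Laminectomy mouse 1 the same 8 genes were DEGs in SHAM mice, and 5 of the 6 were in Laminectomy mice, where *Bmp7* was lost (adjusted p = 0.0580). Without No operation mouse 1, 6 of the 8 were DEGs in SHAM mice, where *Nog* and *Chrdl1* were lost, and the 6 in Laminectomy mice were joined by *Id1*.

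No mouse of SHAM overlapped with a No operation mouse in 6 of the 10 genes, and no Laminectomy mouse did in 7 of the 10, where 54.5% and 56.0% of all genes tested had groups that do not overlap. For each of these genes the two-sided exact permutation test of log2 CPM gave p = 0.0286, the smallest that 4 mice against 4 allow, and 0.0571 after Benjamini-Hochberg adjustment over the 30 comparisons made for the 10 genes. Both surgical groups were set against the same No operation mice, so their fold changes are not independent of each other.

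**Figure D2:**
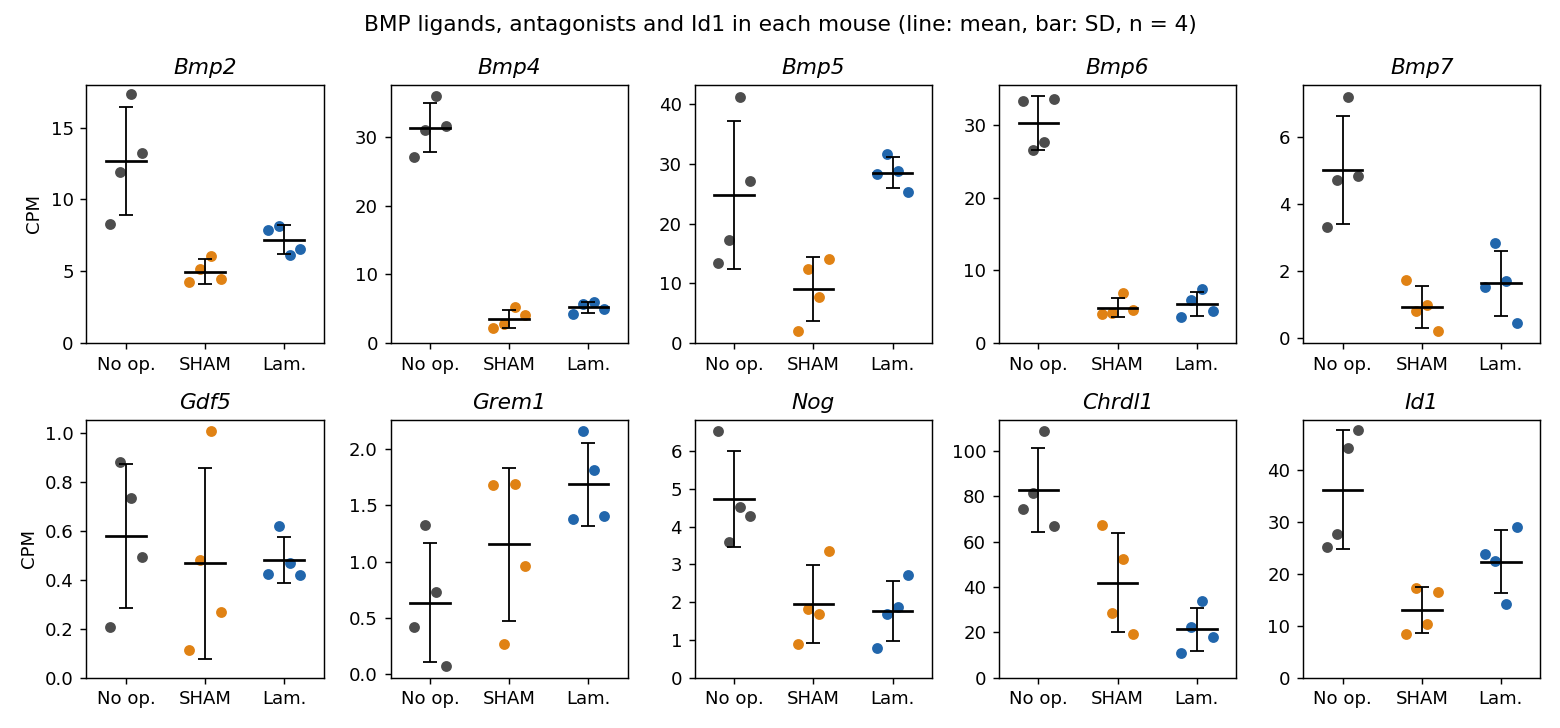
CPM of the 10 genes, with 1 panel per gene and 1 point per mouse; the horizontal line is the mean and the bar the SD of 4 mice. *Bmp4* and *Bmp6* lie between 26.5 and 36.0 CPM without surgery and between 2.25 and 7.36 CPM after it, while *Bmp5* in Laminectomy mice lies within the range of No operation mice.

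The start regions of *Bmp4*, *Bmp5* and *Grem1* are printed because these genes followed 3 courses: *Bmp4* fell most, *Bmp5* fell in SHAM mice and was not a DEG in Laminectomy mice, and *Grem1* was a DEG in neither group. RefSeq (GRCm38.p6) gave a promoter window for 4 of the 10 genes. That of *Bmp6* lay wholly in annotated exons and is not shown. The other windows run 5′ to 3′ on the gene's strand, from 250 to 11 bases before the RefSeq start, and hold no annotated exon base. Their positions are chr14:46390680-46390919 on the minus strand for *Bmp4*, chr9:75775115-75775354 on the plus strand for *Bmp5* and chr2:113758659-113758898 on the minus strand for *Grem1*.
Bmp4: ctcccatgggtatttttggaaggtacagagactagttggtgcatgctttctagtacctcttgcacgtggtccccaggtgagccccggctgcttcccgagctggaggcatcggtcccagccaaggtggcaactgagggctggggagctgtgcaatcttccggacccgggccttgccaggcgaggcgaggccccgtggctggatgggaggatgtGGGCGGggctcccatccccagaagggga
Bmp5: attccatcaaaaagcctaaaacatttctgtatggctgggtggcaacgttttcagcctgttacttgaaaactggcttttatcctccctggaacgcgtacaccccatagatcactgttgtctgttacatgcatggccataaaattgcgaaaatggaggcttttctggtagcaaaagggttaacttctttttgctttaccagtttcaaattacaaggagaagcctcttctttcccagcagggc
Grem1: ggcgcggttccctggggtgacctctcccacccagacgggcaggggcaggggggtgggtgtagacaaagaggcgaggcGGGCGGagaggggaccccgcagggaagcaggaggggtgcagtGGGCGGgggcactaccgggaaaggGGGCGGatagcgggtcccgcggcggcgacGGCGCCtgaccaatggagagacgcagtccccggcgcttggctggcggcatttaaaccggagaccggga
Capitals mark matches, on either strand, to GGCGCC (a GC-rich SMAD element), CAGCTG (an E-box), GGGCGG (the GC box) and TATAAA (the TATA box), and no match overlapped another in these windows.

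The *Bmp4* window held a single GC box, starting 38 bases before the gene. The *Bmp5* window held none of the 4 motifs. The *Grem1* window held 3 GC boxes and 1 GGCGCC, which starts 78 bases before the gene. Among 32851 RefSeq windows of the same length, with 1 chromosome left out, 31.3% held GGGCGG, 9.08% GGCGCC, 12.4% CAGCTG and 12.1% TATAAA. GC content was 63.8% for *Bmp4*, 42.9% for *Bmp5* and 72.1% for *Grem1*, beside a median of 52.1% over those 32851 windows. These matches describe letters only, since no binding or methylation was analysed here.

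*Bmp4* (identifier 12159, chromosome 14, 46383520 to 46390669 on GRCm38) encodes a ligand that drives bone and fat differentiation. It was at 27.1, 31.0, 36.0 and 31.6 CPM in mice 1 to 4 of the No operation group, at 2.25, 2.73, 5.19 and 4.00 CPM in those of the SHAM group and at 4.18, 5.66, 5.91 and 4.95 CPM in those of the Laminectomy group. Every mouse after surgery was thus far below every No operation mouse. *Bmp4* fell 8.85-fold in SHAM mice (log2 fold change -3.15 ± 0.242 SE, n = 4 per group, adjusted p = 3.27e-06, edgeR). In Laminectomy mice it fell 6.07-fold (log2 fold change -2.60 ± 0.235 SE, adjusted p = 1.02e-05, edgeR). Both calls held under every alternative tried.

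*Bmp6* (identifier 12161, chromosome 13, 38345107 to 38500302), a ligand also known for controlling hepcidin and thereby iron, followed much the same levels. It was at 33.4, 26.5, 27.7 and 33.6 CPM without surgery, at 4.05, 4.12, 6.83 and 4.48 CPM in those of the SHAM group and at 3.60, 5.86, 7.36 and 4.38 CPM in those of the Laminectomy group. The surgical groups overlapped each other and neither overlapped the controls. The fall was 6.21-fold in SHAM mice (log2 fold change -2.63 ± 0.241 SE, adjusted p = 8.11e-06, edgeR) and 5.71-fold in Laminectomy mice (-2.51 ± 0.240 SE, adjusted p = 1.32e-05, edgeR). An exon of *Txndc5* on the opposite strand overlaps *Bmp6*, and the use of strand in counting is stated only as the default setting. *Bmp4*, *Bmp5* and *Gdf5* likewise overlap genes on the opposite strand, which the count table does not list.

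*Bmp2* (identifier 12156, chromosome 2, 133552159 to 133562885), a potent bone-inducing ligand, changed less. Its levels were 8.27, 11.9, 17.3 and 13.2 CPM in No operation, 4.21, 5.14, 6.09 and 4.43 CPM in SHAM and 7.89, 8.17, 6.11 and 6.57 CPM in Laminectomy mice. The lowest control and the highest Laminectomy mouse were close, and no 2 groups overlapped. *Bmp2* fell 2.55-fold in SHAM mice (log2 fold change -1.35 ± 0.221 SE, adjusted p = 0.000301, edgeR) and 1.76-fold in Laminectomy mice (-0.82 ± 0.217 SE, adjusted p = 0.00693, edgeR). The Laminectomy call was lost with total-count scaling (adjusted p = 0.0658).

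*Bmp7* (identifier 12162, chromosome 2, 172868012 to 172940321), a ligand of kidney and skeletal development, was scarce. It was at 3.31, 4.72, 7.19 and 4.84 CPM without surgery, at 1.74, 0.802, 1.01 and 0.214 CPM in those of the SHAM group and at 1.54, 2.83, 1.71 and 0.469 CPM in those of the Laminectomy group. These values rest on 48 to 108 counts per No operation mouse, 4 to 31 per SHAM mouse and 9 to 55 per Laminectomy mouse. *Bmp7* fell 5.31-fold in SHAM mice (log2 fold change -2.41 ± 0.584 SE, adjusted p = 0.00387, edgeR) and 3.06-fold in Laminectomy mice (-1.61 ± 0.560 SE, adjusted p = 0.0268, edgeR). The Laminectomy call was lost with total-count scaling (adjusted p = 0.0549). It was also lost when No operation mouse 3 or Laminectomy mouse 1, 3 or 4 was left out, with adjusted p up to 0.0756.

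*Bmp5* (identifier 12160, chromosome 9, 75775364 to 75900310) encodes a ligand needed for the normal shape of ears and other skeletal parts. It was at 13.4, 17.3, 41.3 and 27.2 CPM in mice without surgery, at 2.02, 12.4, 7.68 and 14.1 CPM in those of the SHAM group and at 28.4, 31.7, 28.9 and 25.4 CPM in those of the Laminectomy group. SHAM mouse 1 was lowest, SHAM mouse 4 was above No operation mouse 1, and the Laminectomy mice lay close together within the wide range of the controls. *Bmp5* fell 2.74-fold in SHAM mice (log2 fold change -1.45 ± 0.482 SE, adjusted p = 0.0207, edgeR). This call was lost with total-count scaling (adjusted p = 0.0531), with the compared groups fitted alone (0.0521) and without No operation mouse 3 (0.0742) or SHAM mouse 3 (0.0508). Without SHAM mouse 1 the log2 fold change was -1.13 (adjusted p = 0.0173). In Laminectomy mice the log2 fold change was 0.20 ± 0.466 SE (95% interval -0.82 to 1.23, adjusted p = 0.726, edgeR), an interval that spans both a fall and a rise of over 1.5-fold.

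*Gdf5* (identifier 14563, chromosome 2, 155941023 to 155945367), a ligand of joint and tendon formation, had few counts in all groups. It had 3, 14, 11 and 7 counts in No operation mice, 2, 9, 19 and 5 counts in SHAM mice and 8, 12, 9 and 8 counts in Laminectomy mice. The groups overlapped throughout. Its log2 fold change was -0.31 in SHAM (95% interval -1.58 to 0.97, adjusted p = 0.666, edgeR) and -0.27 in Laminectomy mice (-1.53 to 1.00, adjusted p = 0.712), and both intervals include the log2 fold change that *Bmp2* had in the same group. The sign in Laminectomy mice flipped with total-count scaling (0.03).

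**Figure D3:**
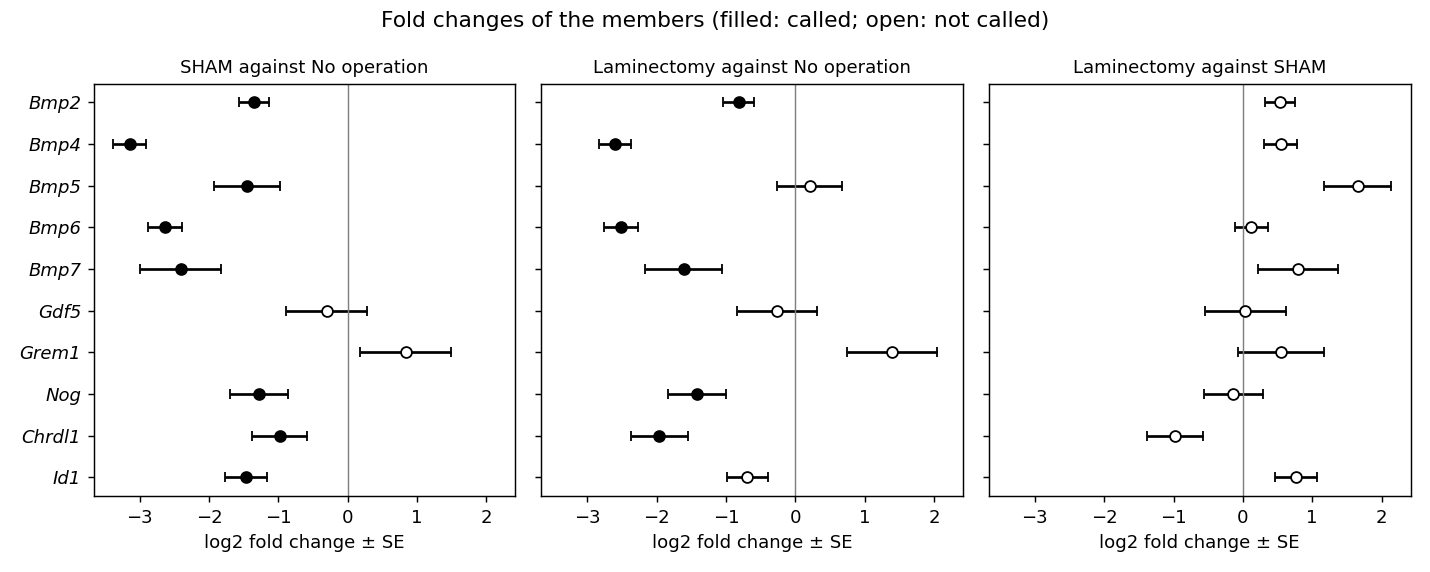
Log2 fold change with its SE for the 10 genes in the 3 comparisons, from edgeR with 4 mice per group. Filled points were called DEGs: 8 in SHAM, 6 in Laminectomy and 0 between the surgical groups, where *Bmp5* has the highest value at 1.66 ± 0.483 SE.

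Among the antagonists, *Chrdl1* and *Nog* fell while *Grem1* did not. *Chrdl1* (identifier 83453, chromosome X, 143285674 to 143394262), the chordin-like antagonist, was the most abundant of the 3 by CPM. It was at 74.2, 81.3, 109 and 66.8 CPM in No operation, 67.3, 28.7, 52.3 and 19.3 CPM in SHAM and 10.8, 22.5, 33.8 and 18.0 CPM in Laminectomy mice. SHAM mouse 1 lay just above No operation mouse 4, and every Laminectomy mouse lay below the controls. *Chrdl1* fell 3.89-fold in Laminectomy mice (log2 fold change -1.96 ± 0.408 SE, adjusted p = 0.00162, edgeR), and this held under every alternative. In SHAM mice the fall was 1.98-fold (-0.98 ± 0.396 SE, adjusted p = 0.0481, edgeR), at the edge of the threshold. That call was lost with DESeq2 size factors (adjusted p = 0.0507), with total-count scaling (0.113), with no filter on low counts (0.0526) and in 9 of the 12 fits without a single mouse (up to 0.122). Without SHAM mouse 1 it was -1.30 (adjusted p = 0.0181).

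*Nog* (identifier 18121, chromosome 11, 89300638 to 89302332) encodes noggin, which binds BMP2 and BMP4 tightly. It was at 6.55, 3.59, 4.53 and 4.28 CPM without surgery, at 0.899, 1.82, 1.69 and 3.36 CPM in those of the SHAM group and at 0.794, 1.70, 1.86 and 2.71 CPM in those of the Laminectomy group. Neither surgical group overlapped the controls. It fell 2.43-fold in SHAM mice (log2 fold change -1.28 ± 0.422 SE, adjusted p = 0.0202, edgeR) and 2.67-fold in Laminectomy mice (-1.42 ± 0.423 SE, adjusted p = 0.0130, edgeR). The SHAM call was lost with total-count scaling (adjusted p = 0.0600) and without No operation mouse 1 (0.0577).

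*Grem1* (identifier 23892, chromosome 2, 113746164 to 113758646) encodes gremlin 1, known from fibrotic tissue and limb buds. It had 6, 21, 11 and 1 counts in No operation mice, 30, 5, 32 and 18 counts in SHAM mice and 26, 42, 35 and 27 counts in Laminectomy mice. On the CPM scale these were 0.414, 1.32, 0.733 and 0.0701, then 1.69, 0.267, 1.69 and 0.961, then 1.38, 2.16, 1.81 and 1.41. All Laminectomy mice were above all controls, while SHAM mice overlapped both groups. The log2 fold change was 1.39 ± 0.651 SE in Laminectomy mice (95% interval -0.04 to 2.81, adjusted p = 0.0849, edgeR) and 0.84 ± 0.657 SE in SHAM mice (-0.60 to 2.28, adjusted p = 0.284), so it was not a DEG in either. In Laminectomy mice it passed the threshold with total-count scaling (1.68, adjusted p = 0.0425) and without No operation mouse 2 (2.03, adjusted p = 0.0274).

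*Id1* (identifier 15901, chromosome 2, 152736251 to 152737410), a direct SMAD target whose protein blocks differentiation factors, fell in SHAM mice. It was at 25.2, 27.6, 44.3 and 47.8 CPM without surgery, at 8.37, 17.3, 10.4 and 16.4 CPM in those of the SHAM group and at 23.8, 22.5, 14.2 and 29.0 CPM in those of the Laminectomy group. SHAM mice were below all controls, and Laminectomy mouse 4 was above the lowest of the controls. The fall was 2.76-fold in SHAM mice (log2 fold change -1.46 ± 0.302 SE, adjusted p = 0.00140, edgeR). In Laminectomy mice the log2 fold change was -0.70 ± 0.295 SE (95% interval -1.34 to -0.05, adjusted p = 0.0605, edgeR), and with DESeq2 (adjusted p = 0.0455) and in 4 of the 12 fits without a single mouse it passed the threshold. With total-count scaling it was -0.37 (adjusted p = 0.306).

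Between Laminectomy and SHAM mice none of the 10 genes was a DEG, as for all 14765 genes tested (0% called, edgeR; smallest adjusted p 0.0698). At an unadjusted p below 0.05, 5 of the 10 genes and 2359 of all genes differed. DESeq2 called 601 genes (4.07%), of which *Bmp5* was the only member. *Bmp5* had 25.4 to 31.7 CPM in Laminectomy mice and 2.02 to 14.1 CPM in SHAM mice, with no overlap, and was 3.16-fold higher in the former (log2 fold change 1.66 ± 0.483 SE, 95% interval 0.60 to 2.71, adjusted p = 0.151 by edgeR and 0.0193 by DESeq2). Without SHAM mouse 1 the log2 fold change was 1.34 (adjusted p = 0.260, edgeR). *Bmp2* was the other gene whose groups did not overlap (0.53, 95% interval 0.05 to 1.01, adjusted p = 0.265), and 10.1% of all genes tested had groups that do not overlap in this comparison.

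*Id1* was 1.70-fold higher in Laminectomy than in SHAM mice (log2 fold change 0.77 ± 0.298 SE, 95% interval 0.12 to 1.42, adjusted p = 0.238, edgeR). *Bmp4* had a log2 fold change of 0.54 (0.04 to 1.05, adjusted p = 0.282) and *Chrdl1* of -0.98 (-1.85 to -0.10, adjusted p = 0.259). Those 3 genes did not pass the threshold after adjustment. For *Bmp6* the interval was -0.39 to 0.64, for *Nog* -1.07 to 0.79, for *Bmp7* -0.47 to 2.06, for *Grem1* -0.80 to 1.90 and for *Gdf5* -1.23 to 1.30 on the log2 scale, each spanning 0.

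Levels were compared between genes per kilobase of exon (CPM per kb). In No operation mice *Id1* was highest at 31.2, followed by *Bmp4* at 14.0 and *Chrdl1* at 12.3, then *Bmp6* at 7.77, *Bmp5* at 6.16, *Bmp2* at 3.57, *Nog* at 2.79, *Bmp7* at 1.25, *Gdf5* at 0.249 and *Grem1* at 0.153 (means of 4 mice). The ranges over mice overlapped between *Bmp4* and *Chrdl1*, along the run from *Bmp6* to *Nog*, and between *Gdf5* and *Grem1*. In SHAM mice the order was *Id1* at 11.3, *Chrdl1* at 6.20, *Bmp5* at 2.25, *Bmp4* at 1.58, *Bmp2* at 1.40, *Bmp6* at 1.25, *Nog* at 1.15, *Grem1* at 0.278, *Bmp7* at 0.234 and *Gdf5* at 0.201, and only *Nog* and *Grem1* were neighbours without overlap. In Laminectomy mice *Id1* stood at 19.3 and *Bmp5* at 7.10, each separate from the next gene, followed by *Chrdl1* at 3.15, *Bmp4* at 2.30, *Bmp2* at 2.02, *Bmp6* at 1.36, *Nog* at 1.04, *Grem1* and *Bmp7* both at 0.407 and *Gdf5* at 0.207, with overlap between all neighbours from *Chrdl1* on.

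The 6 ligands together amounted to 27.2 to 40.3 CPM per kb in No operation mice, 4.21 to 8.37 in SHAM mice and 11.8 to 15.2 in Laminectomy mice, so the 3 groups did not overlap in this sum. SHAM mouse 1 set the lowest SHAM value, and the other SHAM mice lay at 7.19 to 8.37. *Bmp4* made up 39.7 to 46.3% of it without surgery, 16.9 to 27.6% in SHAM mice and 14.7 to 18.7% in Laminectomy mice. *Bmp5* made up 12.3 to 25.4%, 11.9 to 44.6% and 51.1 to 55.9%, and 22.8 to 44.6% in SHAM mice other than mouse 1. Per length, *Bmp4* was the highest ligand in 4 of 4 No operation mice and *Bmp5* in 4 of 4 Laminectomy mice. In SHAM mice *Bmp5* was highest in 2 of 4, with *Bmp2* highest in mouse 1 and *Bmp4* in mouse 3. These shares are a description of fixed sums and were not tested.

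**Figure D4:**
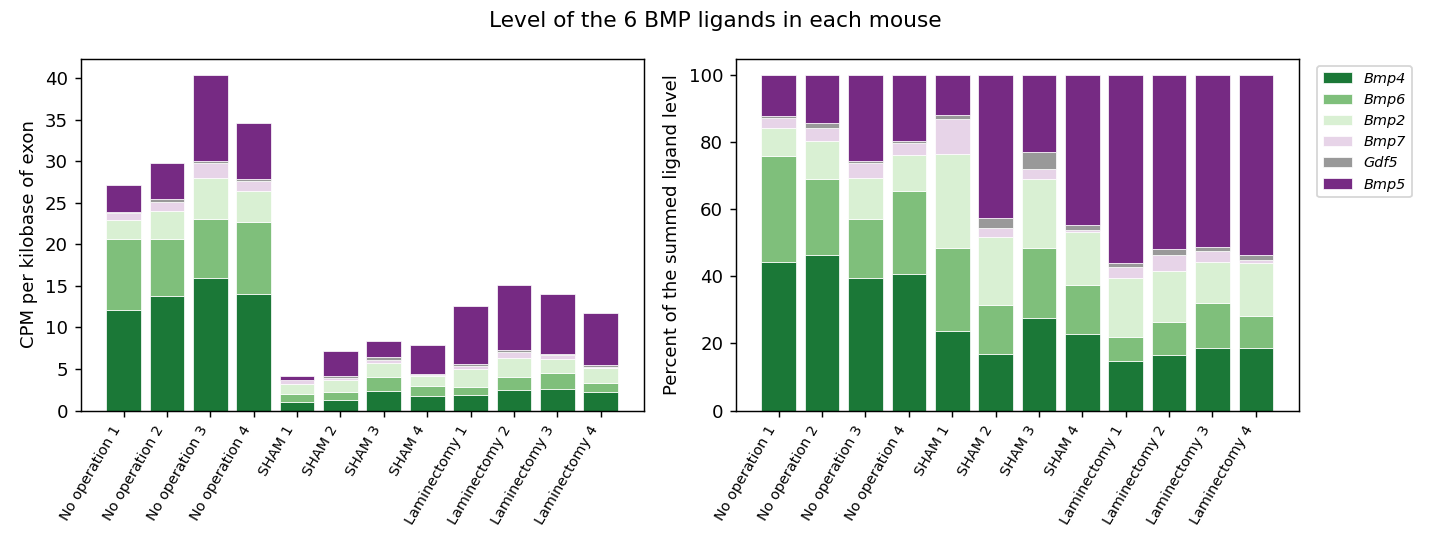
Levels of the 6 ligands in each mouse as stacked bars, in CPM per kilobase of exon on the left and as a percent of their sum on the right. The sum is 27.2 to 40.3 without surgery, and *Bmp5* takes 51.1 to 55.9% of it in the 4 Laminectomy mice.

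Beside the falls called against No operation mice, 7 of 7 skeletal muscle markers were DEGs and lower in both surgical groups. Adipocyte markers summed to 576 to 1369 CPM in No operation, 23.9 to 550 CPM in SHAM and 3.39 to 101 CPM in Laminectomy mice, and 3 of 5 and 5 of 5 were lower. Single mice set several of these limits. No operation mouse 1 set the lowest of its group (933 to 1369 CPM without it), as did Laminectomy mouse 1 (43.4 to 101 CPM without it). SHAM mouse 2 set the lowest SHAM sum (61.9 to 550 CPM without it) and SHAM mouse 3 the highest (23.9 to 138 CPM without it). Tendon markers summed to 2932 to 7848, 303 to 2372 and 1159 to 2602 CPM, and endothelial markers to 692 to 869, 511 to 703 and 466 to 689 CPM in the same order, with 3 of 5 and 1 of 5 of the tendon markers lower and 3 of 6 endothelial markers lower in each surgical group. The tendon sum was 867 to 2372 CPM in SHAM mice without mouse 1 and 303 to 1504 CPM without mouse 3. It was 1807 to 2602 CPM in Laminectomy mice without mouse 1 and 2932 to 3707 CPM in No operation mice without mouse 3. Macrophage markers summed to 666 to 1778, 4397 to 7553 and 3228 to 5223 CPM, and 6 of 6 and 5 of 6 were higher. Without No operation mouse 4 the macrophage sum of that group was 1023 to 1778 CPM. The part of these tissues and cells in the results was not tested.

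Beside the *Bmp5* difference between the surgical groups, bone markers summed to 635 to 1797 CPM in Laminectomy and 2.70 to 122 CPM in SHAM mice, the lowest being SHAM mouse 1 and the others at 42.7 to 122 CPM. None of these 6 markers was a DEG (edgeR), and 6 of 6 had an unadjusted p below 0.05, with a median log2 fold change of 3.37. *Ibsp* had the highest mean of the list in Laminectomy mice at 987 CPM, with *Alpl* next at 118 CPM. Against No operation mice none of the 6 was a DEG in Laminectomy mice either. Their log2 fold changes there ran from -0.18 for *Bglap* to 3.72 for *Ibsp*. Cartilage markers summed to 175 to 1027 CPM and 12.1 to 126 CPM (42.7 to 126 CPM without SHAM mouse 1), with 5 of 5 tested at an unadjusted p below 0.05 and a median log2 fold change of 2.11. SHAM mouse 3 set the highest SHAM sum of cartilage markers (12.1 to 57.1 CPM without it). Laminectomy mouse 4 set the lowest of its group (302 to 1027 CPM without it) and mouse 2 the highest (175 to 418 CPM without it). In No operation mice bone markers summed to 18.9 to 536 CPM (18.9 to 166 CPM without mouse 2, 39.1 to 536 CPM without mouse 1). Cartilage markers summed to 143 to 845 CPM there (446 to 845 CPM without mouse 1), with *Matn1* at 0. In this group *Chad* averaged 425 CPM, and *Col2a1* was next at 60.2 CPM. Against No operation mice the cartilage list split in Laminectomy mice. *Acan* and *Sox9* were DEGs and higher (log2 fold changes 3.17 and 2.65), *Chad* was a DEG and lower (-3.67), and *Col2a1* and *Matn3* were not DEGs. The 6 markers of resting fibroblasts summed to 343 to 644 CPM in Laminectomy, 775 to 1364 CPM in SHAM and 728 to 1259 CPM in No operation mice (1123 to 1259 CPM without No operation mouse 2). Their part in the *Bmp5* and *Chrdl1* values was not tested.

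For the genes that fell in both surgical groups, the tested genes with the most similar course over the 12 mice were found by the root-mean-square distance of log2 CPM scaled to mean 0 and SD 1. The nearest to *Bmp4* were *Larp1b* (0.102) and *Dlat* (0.115), and the nearest to *Bmp6* were *Crat* (0.104) and *Stradb* (0.108). *Dlat* and *Crat* encode mitochondrial enzymes of pyruvate and carnitine metabolism. *Bmp2* was nearest to *Chad* (0.254) and *Fmod* (0.274), which encode small leucine-rich matrix proteins and stand on the cartilage and tendon marker lists. *Chrdl1* was nearest to *Abca6* (0.230) and *Fmo2* (0.242). *Nog* was nearest to *Fhl1* (0.318) and *Myoz2* (0.340), both known from muscle, and *Bmp7* to *Ntng1* (0.358) and *Kank4* (0.375), at larger distances.

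Of 58 other BMP pathway genes in the table, 53 were tested. In SHAM mice 7 of them rose and 17 fell, and in Laminectomy mice 5 rose and 14 fell. Over all genes tested, 25.7% were called higher and 25.1% lower in SHAM mice, and 24.2% and 24.4% in Laminectomy mice. The median log2 fold change of the 53 genes was -0.32 in SHAM and -0.07 in Laminectomy mice. Between the surgical groups none was a DEG with edgeR, and 16 had an unadjusted p below 0.05. The 5 genes that were not tested had few counts, with at most 7 in any mouse for *Bmp8b*, 1 for *Gdf2*, 3 for *Gdf7*, 6 for *Vwc2* and 15 for *Msx2*.

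Of 6 other ligands tested, 2 fell in each surgical group, *Mstn* and *Bmp3*. *Mstn* encodes myostatin, a related ligand that limits muscle growth. It was at 43.5 to 107 CPM in No operation, 1.01 to 4.77 CPM in SHAM and 0.318 to 8.50 CPM in Laminectomy mice, with log2 fold changes of -4.89 ± 0.726 SE (adjusted p = 0.000155) and -3.93 ± 0.685 SE (adjusted p = 0.000531, edgeR). *Bmp3*, a ligand that opposes the bone-inducing BMPs, was at 15.7 to 43.4, 3.58 to 6.69 and 4.74 to 11.2 CPM, with log2 fold changes of -2.43 ± 0.404 SE (adjusted p = 0.000341) and -1.84 ± 0.394 SE (adjusted p = 0.00194, edgeR). Neither gene overlapped between controls and surgical groups.

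Of 17 other antagonists and extracellular regulators tested, 6 rose and 3 fell in SHAM mice, and 2 rose and 3 fell in Laminectomy mice. *Bmp1*, which despite its name is a protease that cleaves procollagen and chordin, was at 149 to 210 CPM in No operation, 538 to 803 CPM in SHAM and 401 to 555 CPM in Laminectomy mice. It rose with log2 fold changes of 1.99 ± 0.178 SE (adjusted p = 7.1e-06) and 1.51 ± 0.176 SE (adjusted p = 4.09e-05, edgeR). *Crim1*, a membrane protein that binds BMPs, fell with log2 fold changes of -1.36 ± 0.173 SE (adjusted p = 5.55e-05) and -1.42 ± 0.173 SE (adjusted p = 5.52e-05, edgeR), and its exons overlap *Fez2* on the opposite strand. *Chrdl2*, another chordin-like protein, was at 0.693 to 1.45 CPM in No operation mice and did not exceed 0.588 CPM after SHAM surgery, where it fell (-2.10 ± 0.717 SE, adjusted p = 0.0239, edgeR), a call kept in 8 of the 12 fits without a single mouse. Named after their values were seen, the others that rose were *Bmper*, *Fst*, *Fstl1*, *Fstl3* and *Tll1* in SHAM mice and *Fstl1* in Laminectomy mice, and *Dand5* fell in both.

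Of 12 receptors and co-receptors, 5 fell and none rose in each surgical group. *Hjv*, the hemojuvelin co-receptor for BMP6, was at 394 to 565 CPM in No operation, 7.87 to 60.3 CPM in SHAM and 31.2 to 82.5 CPM in Laminectomy mice. Its log2 fold changes were -3.39 ± 0.530 SE (adjusted p = 0.000221) and -2.82 ± 0.517 SE (adjusted p = 0.000736, edgeR). *Acvr2b*, a type II receptor for myostatin, activins and BMPs, was at 49.9 to 59.9, 9.16 to 14.3 and 11.8 to 14.0 CPM, with log2 fold changes of -2.32 ± 0.140 SE (adjusted p = 2.11e-06) and -2.12 ± 0.139 SE (adjusted p = 3.32e-06, edgeR). The others that fell, named after their values were seen, were *Bmpr1a* and *Rgmb* in both groups, *Bmpr1b* in SHAM mice and *Rgma* in Laminectomy mice.

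Of 8 SMADs and their ligases, 3 fell in SHAM mice and 2 in Laminectomy mice, and none rose. *Smad6* and *Smad7*, the inhibitory SMADs that are themselves induced by the pathway, had log2 fold changes of -0.89 ± 0.146 SE (adjusted p = 0.000314) and -0.52 ± 0.196 SE (adjusted p = 0.0373) in SHAM mice. In Laminectomy mice they were -0.60 ± 0.145 SE (adjusted p = 0.00428) and -0.70 ± 0.196 SE (adjusted p = 0.00943, edgeR). With total-count scaling the calls of *Smad7* in both groups and of *Smad6* in Laminectomy mice were lost. The SHAM call of *Smad7* was also lost with the compared groups fitted alone (adjusted p = 0.0682) and without No operation mouse 2 or 4 or SHAM mouse 2, 3 or 4 (adjusted p up to 0.0901). *Smad9*, a BMP-activated SMAD, was at 1.79 to 3.13 CPM in No operation, 0.695 to 1.23 CPM in SHAM and 1.46 to 5.30 CPM in Laminectomy mice, and fell in SHAM mice (-1.25 ± 0.383 SE, adjusted p = 0.0143, edgeR). Between the surgical groups *Smad9* had a log2 fold change of 1.63 ± 0.382 SE (adjusted p = 0.112 by edgeR), and DESeq2 called it.

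Of 10 other target genes tested, 1 rose and 4 fell in SHAM mice, and 3 rose and 2 fell in Laminectomy mice. *Id2*, of the same family as *Id1*, rose in both groups, from 13.0 to 25.4 CPM in No operation to 35.3 to 89.0 CPM in SHAM and 30.6 to 49.3 CPM in Laminectomy mice. Its log2 fold changes were 1.39 ± 0.310 SE (adjusted p = 0.00227) and 0.91 ± 0.308 SE (adjusted p = 0.0234, edgeR), while *Id1* fell in SHAM mice. The Laminectomy call of *Id2* was lost without Laminectomy mouse 1 (adjusted p = 0.0677), No operation mouse 1 (0.0559) or No operation mouse 4 (0.0640). *Atoh8*, a BMP-induced transcription factor, fell with log2 fold changes of -1.37 ± 0.263 SE (adjusted p = 0.000873) and -0.83 ± 0.258 SE (adjusted p = 0.0156, edgeR), the latter lost with total-count scaling (adjusted p = 0.111) and without No operation mouse 4 (0.0551). *Runx2*, the master factor of osteoblasts, was at 3.86 to 39.2 CPM in No operation, 26.1 to 40.4 CPM in SHAM and 45.3 to 81.1 CPM in Laminectomy mice. It rose in Laminectomy mice (1.88 ± 0.534 SE, adjusted p = 0.00994, edgeR), and without No operation mouse 2 this value was 2.76. In SHAM mice it was at 0.93 ± 0.525 SE (adjusted p = 0.142), and without the same mouse at 1.81, past the threshold (adjusted p = 0.00213). Exons of *Runx2* overlap an antisense gene. The others, named after their values were seen, were *Id3*, which rose in Laminectomy mice, and *Id4*, *Hey1* and *Zfp423* in SHAM and *Zfp423* in Laminectomy mice, which fell.

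**Figure D5:**
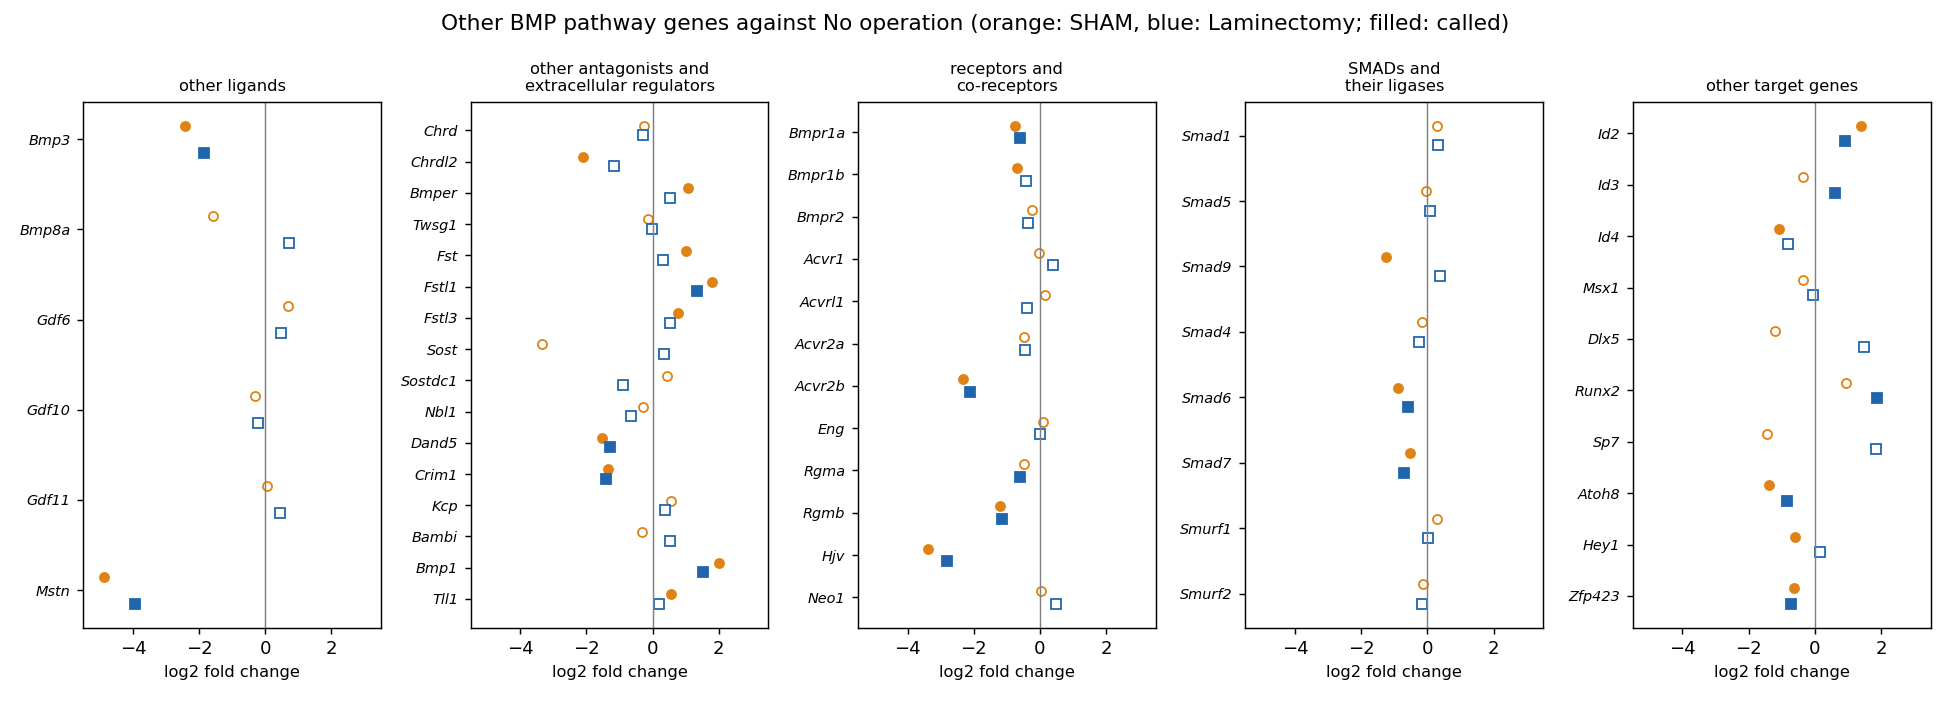
Log2 fold changes of other pathway genes against No operation mice, by role, with SHAM mice in orange and Laminectomy mice in blue. Filled symbols were called DEGs, and the lowest values are those of *Mstn* at -4.89 and -3.93 and of *Hjv* at -3.39 and -2.82.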

How the data were processed

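RNA was measured by bulk sequencing in 12 mice. The authors prepared stranded polyA libraries, aligned reads with STAR to GRCm38 and counted them per gene with featureCounts at default settings, with DESeq2 as their test (versions 2.6.1b, 2.0.1 and 1.30.1 per the submitters' processing notes). The authors deposited 1 table of 18996 genes without normalization. The values the authors deposited were treated as estimated counts per gene, made by that counting step as far as the methods state, since 10.2% are not whole, although the designs assumed counts, and they were rounded (largest change 0.5). None of the values of the 10 genes was affected. The study's methods give 3 mice per group, chosen on RNA integrity and sequencing quality per the series' design text, but not which mice, and all 4 in the table were used here. No column of another sample was present.

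Genes were filtered with filterByExpr (14765 of 18996 left), scaled by TMM (factors 0.849 to 1.134) and fitted over all 12 mice with edgeR 4.0.16 in R 4.3.3 (glmQLFit and glmQLFTest, adjusted over all genes by Benjamini-Hochberg). The common dispersion was 0.0799, a coefficient of variation of 28.3%. The SE is the absolute log2 fold change divided by the square root of F, and intervals are at 95%. A two-sided exact permutation test on log2 CPM (prior count 2) was added for each of the 10 genes. The scripts were tested on simulated data. DESeq2 1.42.0 and other scalings, filters, thresholds and samples were alternatives.

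Pairs of mice within a group differed by a chi-square of 18.4 to 98.7 per gene, far more than counting noise gives, and each mouse was used as its own replicate. Reads carried no molecular identifiers, so depth (16802989 to 18077868 counts per mouse) covers counting error only. No batch is named by the labels or the methods. Coordinates and exon overlaps come from GENCODE M21 on GRCm38, the length per gene from the union of its exons, and promoters from RefSeq.

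Named are the 10 genes, and of a list of 59 other BMP pathway genes (58 in the table, *Bmp10* not analysed here) the 2 largest changes called in each role and comparison averaging at least 1 CPM in the higher group, with untested genes, and the 2 nearest genes in course averaging at least 1 CPM. The members and lists were chosen with earlier results of these data known. *Sp7* is on the target and the bone lists. Other listed genes are named only where a count or a changed call refers to them, a choice made with their values in view. Separately, 1 listed gene is included in the counts of the list and is not reported here.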

Additional observations from a re-analysis of the deposited data

Results flagged for a closer look

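*Bmp6* in SHAM mouse 3 was at 6.83 CPM, apart from the other SHAM mice at 4.05 to 4.48 CPM by Dixon's test. It was the single value set apart among the 30 sets of 4 mice tested for the 10 genes, and chance sets apart about 1 in 20.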

How the results depend on the processing

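Of the 10 genes, 8 were DEGs in SHAM mice and 5 with total-count scaling, where *Bmp5*, *Nog* and *Chrdl1* were lost. Without a single mouse these counts lay at 6 to 8 in SHAM, 5 to 8 in Laminectomy and 0 to 0 between the surgical groups. Between those groups DESeq2 called 1 of the 10 genes, *Bmp5*, and 7 of the other pathway genes, among them *Bmp8a*, *Hey1*, *Id3*, *Dlx5*, *Acvrl1* and *Smad9*, where edgeR called 0 and 0 (the cause was not tested). The other pathway genes called in Laminectomy mice were 19, and 11 with a log2 fold change above 1, since fewer pass a stricter threshold. Without a single mouse they were 20 to 25 in SHAM, 16 to 24 in Laminectomy and 0 to 0 between the groups. The sign turned for values near 0 that were no calls. Without a single mouse, *Gdf5* lay at -0.99 to 0.0155 in SHAM and -0.54 to 0.00858 in Laminectomy mice and at -0.28 to 0.72 between the surgical groups. *Bmp5* lay at -0.00028 to 0.56 in Laminectomy mice. Between the surgical groups *Bmp6* lay at -0.0780 to 0.33, *Nog* at -0.42 to 0.26, *Crim1* at -0.20 to 0.0531 and *Smad7* at -0.34 to 0.0121. With total-count scaling *Gdf5* was at 0.0330 in Laminectomy mice and *Crim1* at 0.0103 between the surgical groups. *Chrdl2* in SHAM mice was at -2.90 without SHAM mouse 2, *Gdf5* at -0.99 without SHAM mouse 3, and *Grem1* at 1.48 without No operation mouse 2.

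Replicate numbers recur in the groups, but deviations of same-numbered mice correlated at -0.23 to 0.35, not above 0.1 in every pair, and not every mouse matched its own number best, so the mice share only a number. With the replicate number as a block, 8, 6 and 0 of the 10 genes and 26, 19 and 0 of the other pathway genes were called. Low counts limit *Gdf5*, *Grem1* and *Bmp7*, which could not be tested with 10 counts required in every mouse.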

Other observations

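Neutrophil markers were not used above. They summed to 13.3 to 1657 CPM in No operation, 382 to 1053 CPM in SHAM and 414 to 1658 CPM in Laminectomy mice. No operation mouse 4 set the lowest of its group (56.7 to 1657 CPM without it) and mouse 2 the highest (13.3 to 665 CPM without it). Laminectomy mouse 3 set the highest of its group (414 to 1041 CPM without it). Schwann cell markers summed to 238 to 345, 127 to 401 and 78.8 to 488 CPM in the same order of groups. Markers of neurons summed to 0.819 to 4.41, 8.45 to 11.96 and 10.3 to 217 CPM, and of central glia to 38.4 to 106, 0.642 to 1.64 and 1.59 to 114 CPM. The highest Laminectomy values of the neuron, glia and Schwann cell sums were all those of mouse 2. *Aqp4*, which muscle fibres also express, made up nearly all of the sum in No operation mice (mean 69.8 CPM) and fell in both surgical groups (log2 fold changes -6.71 and -3.05), while *Gfap* was called higher in Laminectomy mice (4.50, adjusted p = 0.0116, edgeR) although the groups overlapped. It was at 1.38, 52.7, 18.1 and 0.261 CPM in Laminectomy mice 1 to 4 with No operation mice between 0.140 and 1.60 CPM. Without Laminectomy mouse 2, a fit chosen after seeing the data, its log2 fold change was 3.05 (adjusted p = 0.0463). *Mobp*, *Mog* and *Olig1* averaged at most 0.0490 CPM in No operation mice. The markers of satellite cells and regenerating muscle summed to 53.8 to 86.0 CPM in No operation and 878 to 1270 CPM in Laminectomy mice. *Myh3* averaged 855 CPM of this in Laminectomy mice. *Myog*, *Mymk* and *Myh3* were DEGs and higher there, while *Pax7* and *Myod1* were not DEGs (log2 fold changes 0.04 and 0.45).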
